A study of Mus musculus with 6 samples.

Results

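The genes described here encode subunits of the mitochondrial respiratory chain and of ATP synthase, the machinery of oxidative phosphorylation. They were taken by symbol from the annotation deposited with the Dnmt1-KO arrays: symbols starting with Nduf, Uqcr or Atp5, symbols starting with Cox followed by a digit in the range 4-8, and Sdha, Sdhb, Sdhc, Sdhd and Cyc1. The rule found 81 of 16908 gene symbols and used no measured value. By role they comprise 7 core and 27 accessory subunits of complex I, the complex I assembly factor Ndufaf1, 4 subunits of complex II, 8 of complex III, 12 general and 5 tissue-restricted subunits of complex IV, and 16 genes of the Atp5 group. Cox4nb also matched; it is a neighbour of Cox4i1, is now named Emc8 and encodes no respiratory chain subunit. Ndufa4 is counted with complex IV, of which its protein is a subunit, and Atp5s, now Dmac2l, is counted with the Atp5 group by its symbol.

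Rybp occupancy was measured on promoter arrays after chromatin immunoprecipitation. The cells were mouse embryonic stem (ES) lines of 3 genotypes: a constitutive knockout of Eed (Eed-KO), a constitutive knockout of Dnmt1 (Dnmt1-KO) and wild type (WT). The labels name no clone, strain or passage, and they say that cultures grew on irradiated embryonic fibroblast feeders or on gelatin without saying which did. DNA precipitated with an anti-Rybp antibody carried Cy5 and input DNA carried Cy3. The promoters are split over 2 array designs that share no probes. Each promoter was therefore measured on 1 array per genotype, there are no replicates, and no p-value is given. The arrays measure DNA, so the ES cell label cannot be checked on marker transcripts.

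Oxidative phosphorylation passes electrons from NADH (complex I) or succinate (complex II) through ubiquinone, complex III, cytochrome c and complex IV to oxygen, and the proton gradient built on the way drives ATP synthase, complex V. Nearly all nuclear genes of the pathway are expressed in every cell type from CpG-rich promoters, and transcription factors such as NRF1, GABP of the ETS family and YY1 are known to act on many of them. A few subunits of complex IV exist as isoforms restricted to heart and muscle, lung or testis. Rybp belongs to variant forms of Polycomb repressive complex 1, Eed belongs to the core of Polycomb repressive complex 2, and Dnmt1 maintains CpG methylation at replication.

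The level of a promoter is log2 of IP over input, centred on the array median and averaged over a window. The window of a gene holds 6 consecutive probes within 3 kb, taken where their mean over the 3 genotypes was highest. Bound promoters are those whose level reaches 1, which means 2-fold enrichment of IP over input. Where either genotype of a pair is bound, differences of 1 or more in size are called higher or lower. Errors are the standard deviation (SD) over the 6 probes for a level and the standard error (SE) over those probes for a difference. They cover probe scatter only. Where input or IP signal alone is compared between genotypes, the log2 difference is centred on its array median, so it is relative to the median probe. Windows existed for 80 of the 81 genes, the exception being Ndufa13 with 5 probes, and for 16330 distinct promoters in all.

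On the same arrays the probe log ratios spread more widely in Dnmt1-KO, with SDs of 0.96 and 0.91, than in Eed-KO (0.45 and 0.47) or WT (0.41 and 0.42). The Dnmt1-KO arrays were read on another scanner model with a later extraction version, so scan batch and genotype cannot be told apart for Dnmt1-KO. For scale, 10 of 11 developmental factor promoters known as Polycomb targets were bound in Eed-KO, 11 of 11 in Dnmt1-KO and 10 of 11 in WT.

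The probes of Ndufa13 averaged above the bound level in all 3 genotypes, which no window of 6 did at the other 80 genes. Ndufa13 was singled out after its values were seen, since its 5 probes give no window. In runs of 4 probes, which treat all genes alike, Ndufa13 had 1.58 in Eed-KO, 2.88 in Dnmt1-KO and 1.34 in WT. A Cox5b run also passed the bound level throughout, with 1.13 in Eed-KO, 1.87 in Dnmt1-KO and 1.13 in WT. That run lay at -8127 to -7385 bp from the Cox5b start and overlapped the window of the neighbouring gene BC050210. Over the 6 probes nearest its own start Cox5b was not bound in any genotype. Ndufa13, also known as GRIM-19, is an accessory subunit of complex I. Its probes averaged 1.43 ± 0.76 in Eed-KO, 2.59 ± 1.06 in Dnmt1-KO and 1.27 ± 0.48 in WT (SD over 5 probes). They lie at chr8:72831693-72832510 in the deposited annotation, whose build no source used here names, at positions -168 to -939 bp relative to the start of Ndufa13. The same stretch lies inside the neighbouring gene Tssk6, a kinase gene expressed in testis, which the annotation starts on the opposite strand. The sequences of the 5 probes are shown, from the one nearest the Ndufa13 start outwards, because their mean was the highest WT value of the group, although a single probe of the Cox5b window was higher, at 2.12 in WT. They are printed as the files give them, with CpG dinucleotides in capitals.
Ndufa13 probe 1: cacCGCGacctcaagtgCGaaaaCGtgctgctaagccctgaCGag
Ndufa13 probe 2: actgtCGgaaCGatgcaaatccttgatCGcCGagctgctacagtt
Ndufa13 probe 3: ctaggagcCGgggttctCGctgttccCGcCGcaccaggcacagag
Ndufa13 probe 4: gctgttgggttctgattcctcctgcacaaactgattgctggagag
Ndufa13 probe 5: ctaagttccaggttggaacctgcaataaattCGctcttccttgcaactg

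The first Ndufa13 probe, 512 bp past the Tssk6 start, had levels of 1.96 in Eed-KO, 3.66 in Dnmt1-KO and 1.56 in WT. The second, 820 bp past that start, had 2.31 in Eed-KO, 3.74 in Dnmt1-KO and 1.90 in WT and was the highest WT probe of the locus. The third, with 4 CpG like the second, was the lowest of the 5 in Eed-KO and WT, at 0.48 and 0.68. High probes thus ran through the body of Tssk6, and the next probe outwards, at position -1117 bp from the Ndufa13 start, had 0.51 in Eed-KO, 0.75 in Dnmt1-KO and 0.34 in WT. The window of Tssk6 itself, centred at -96 bp from its start and so on the side of the Ndufa13 gene body, had 1.06 ± 0.56 in Eed-KO, 1.56 ± 0.56 in Dnmt1-KO and 0.87 ± 0.52 in WT. To which of these genes the signal belongs was not tested. The Eed-KO minus WT difference at Ndufa13 was 0.16 ± 0.14 (SE over 5 probes), with 3 of 5 probes above 0, and the Dnmt1-KO minus WT difference was 1.33 ± 0.29, with 5 of 5 above 0.

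**Figure D1:**
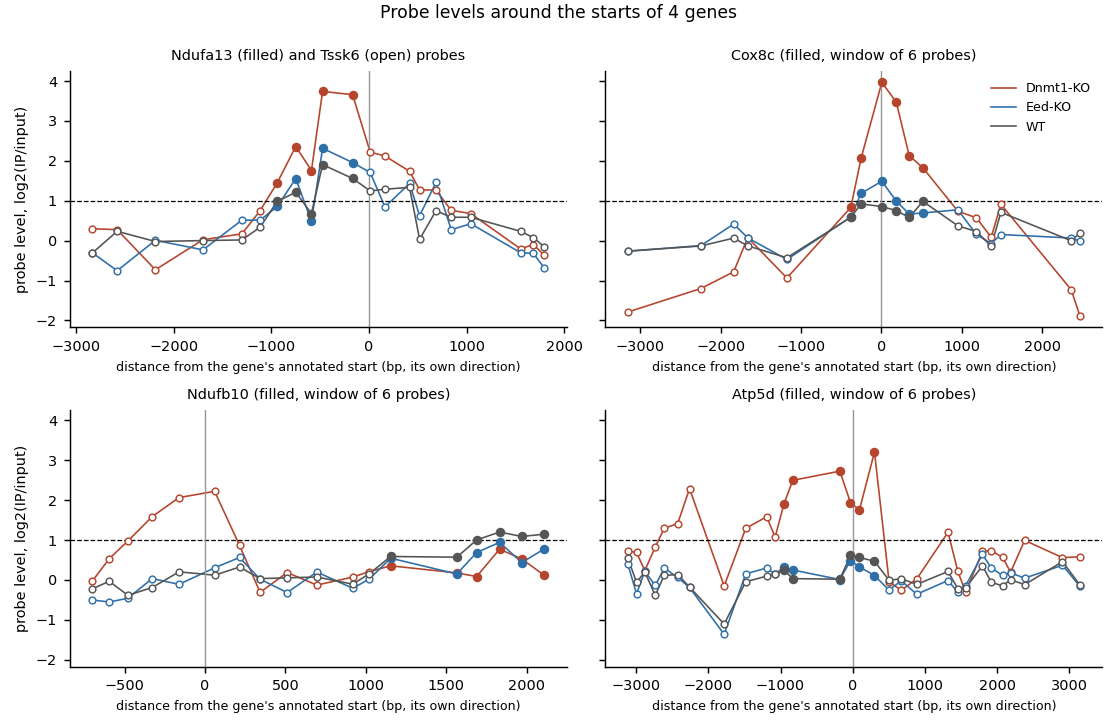
Probe levels (log2 of IP over input, vertical axis) against distance from the annotated start in bp, in Dnmt1-KO (red), Eed-KO (blue) and WT (grey), with the bound level dashed and filled points for the 5 Ndufa13 probes (open: Tssk6) or the window of 6. All 3 genotypes have points above the dashed line at Ndufa13, while in the Cox8c, Ndufb10 and Atp5d panels WT passes it only in the 3′ part of Ndufb10.

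None of the 80 genes with a window was bound in Eed-KO or in WT, against 5.76% of all promoters in Eed-KO and 5.15% in WT. The median level of the 80 was 0.05 in Eed-KO and 0.18 in WT, where all promoters had 0.21 in Eed-KO and 0.27 in WT. With arrays scaled to a common spread, Cox5b, Cox8c and Ndufb10 reached the bound level in WT at 1.23, 1.05 and 1.25 (13.5% of all promoters). On that scale Cox5b and Cox8c were bound in Eed-KO at 1.04 and 1.13 (10.6% of all promoters). In Dnmt1-KO 23 of the 80 were bound (28.8%), against 46.1% of all promoters. On the low side, the window of lowest mean was taken, and a window shared by several genes was counted once, under the first by symbol. Of the 77 genes of the group counted in this way, 11 had a level of -1 or less in Dnmt1-KO, against 14.9% of all promoters. None had such a level in Eed-KO, against 0.168% of all promoters, or in WT, against 0.0559%.

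**Figure D2:**
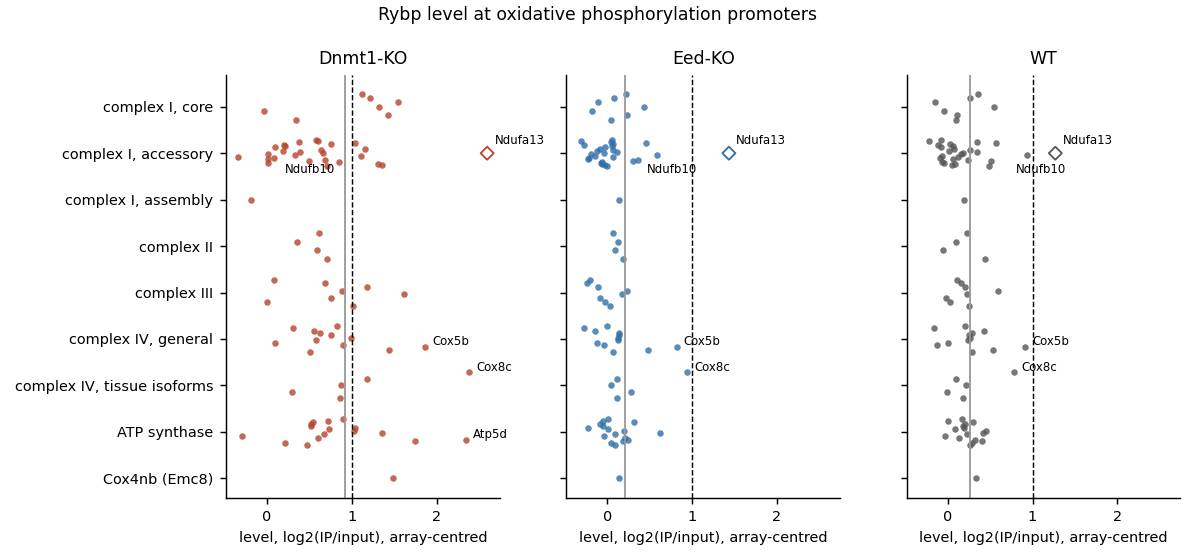
Level of each gene (log2 of IP over input, horizontal axis) by role in Dnmt1-KO, Eed-KO and WT, 1 point per gene. Dashed lines mark the bound level of 1, grey lines the median of all promoters, and the open diamond is Ndufa13 over 5 probes, the only gene right of the dashed line in Eed-KO and WT.

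The gene with a window that came nearest to the bound level in Eed-KO was Cox8c, the testis isoform of complex IV subunit 8. Its level was 0.94 ± 0.35 in Eed-KO, 2.38 ± 1.15 in Dnmt1-KO and 0.78 ± 0.17 in WT, in a window at chr12:103299946-103300902 centred 70 bp past its start. Cox8c was the highest of the 80 in both knockouts. Its 6 probes are shown because the highest probe in each knockout lies at the start itself, whereas in WT probe 6 was highest, at 0.98. They are in order from the upstream side, with CpG dinucleotides in capitals.
Cox8c probe 1: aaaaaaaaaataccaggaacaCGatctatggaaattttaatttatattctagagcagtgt
Cox8c probe 2: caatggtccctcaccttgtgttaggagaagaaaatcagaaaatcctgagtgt
Cox8c probe 3: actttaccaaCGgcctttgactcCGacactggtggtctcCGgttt
Cox8c probe 4: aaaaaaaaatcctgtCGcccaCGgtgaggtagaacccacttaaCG
Cox8c probe 5: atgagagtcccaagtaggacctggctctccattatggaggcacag
Cox8c probe 6: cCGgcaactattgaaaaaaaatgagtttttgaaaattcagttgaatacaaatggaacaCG

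The third Cox8c probe, 6 bp past the start and with 3 CpG, had 1.49 in Eed-KO, 3.97 in Dnmt1-KO and 0.86 in WT. The first, upstream, had 0.59 in Eed-KO, 0.83 in Dnmt1-KO and 0.58 in WT. The Eed-KO minus WT difference of the Cox8c window was 0.16 ± 0.13 with 5 of 6 probes above 0. In the 1 Mb centred on the Cox8c window the median input signal was 0.14 higher in Eed-KO than in WT on the log2 scale, relative to the median probe. The median IP signal was 0.17 higher there, and the part of this regional shift in the Cox8c value was not tested.

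The other tissue-restricted isoforms of complex IV stayed at 0.28 or below in Eed-KO and WT. Cox6b2, the testis isoform of subunit 6b, had 0.05 ± 0.34 in Eed-KO, 0.88 ± 0.13 in Dnmt1-KO and 0.22 ± 0.33 in WT. Cox4i2, the lung isoform of subunit 4, had 0.12 ± 0.19 in Eed-KO, 0.86 ± 0.59 in Dnmt1-KO and 0.18 ± 0.26 in WT. Their ubiquitous counterparts were Cox6b1 (-0.11 in Eed-KO, 0.10 in Dnmt1-KO and 0.00 in WT) and Cox4i1 (0.07 in Eed-KO, 0.51 in Dnmt1-KO and 0.29 in WT). Both isoforms overlapped their counterparts within the probe scatter in Eed-KO and WT. The Cox4i1 window was centred 4031 bp past its start. Over the 6 probes nearest that start Cox4i1 had -0.21 in Eed-KO, 0.50 in Dnmt1-KO and 0.06 in WT. Cox8b, a heart and muscle isoform, had 0.12 ± 0.37 in Eed-KO, 1.18 ± 0.33 in Dnmt1-KO and 0.10 ± 0.29 in WT, in a window centred at -2358 bp from its start. Its ubiquitous counterpart Cox8a had -0.27 ± 0.09 in Eed-KO, 0.31 ± 0.59 in Dnmt1-KO and -0.16 ± 0.20 in WT. Cox6a2, also of heart and muscle, had 0.28 ± 0.25 in Eed-KO, 0.30 ± 0.38 in Dnmt1-KO and -0.01 ± 0.14 in WT.

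In complex I, Ndufb10, an accessory subunit of the membrane arm, had the highest WT level of all 80 genes. Its level was 0.59 ± 0.28 in Eed-KO, 0.34 ± 0.27 in Dnmt1-KO and 0.93 ± 0.28 in WT, and all 6 probes were lower in each knockout than in WT. The window lies at chr17:24449851-24450863, centred 1720 bp past the start, in the 3′ part of the gene. The gene next to that end in the RefSeq table is the ribosomal protein gene Rps2, which hosts small nucleolar RNAs. At its own start Ndufb10 had 0.06 in Eed-KO, 1.23 in Dnmt1-KO and 0.02 in WT over the 6 nearest probes, so there Dnmt1-KO was the highest genotype, whereas in the window it was the lowest.

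The core subunits of complex I, which carry the flavin and the iron-sulfur clusters, had WT levels between -0.14 (Ndufs8) and 0.55 (Ndufs7), with Ndufv2 at 0.35 and Ndufv1 at 0.26 next. After Ndufb10, the accessory subunits were led in WT by Ndufc2 at 0.57 and Ndufa5 at 0.52, and the lowest were Ndufs5 at -0.22 and Ndufb9 at -0.11. Complex II, succinate dehydrogenase, was led in WT by the flavoprotein gene Sdha at 0.44, with Sdhb, the iron-sulfur subunit gene, lowest at -0.05. In complex III, Uqcrc2, a core protein, had 0.23 ± 0.34 in Eed-KO, 0.88 ± 0.48 in Dnmt1-KO and 0.59 ± 0.18 in WT. The other 7 complex III genes were at 0.25 or below in WT, from Cyc1 (cytochrome c1) down to Uqcrb at -0.02.

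Among the general subunits of complex IV, Cox5b had 0.82 ± 0.68 in Eed-KO, 1.86 ± 0.82 in Dnmt1-KO and 0.91 ± 0.67 in WT. Its window was centred at -7526 bp from the Cox5b start, at chr1:36627883-36629052, and shared probes with the neighbouring gene BC050210, now Fam178b, whose own window had 1.17 in Eed-KO, 2.25 in Dnmt1-KO and 1.21 in WT. Over the 6 probes nearest its start Cox5b had 0.43 in Eed-KO, 0.93 in Dnmt1-KO and 0.35 in WT. Cox5a, the partner subunit, was next in WT at 0.54, and Cox8a (-0.16) and Cox6a1 (-0.13) were lowest. In the Atp5 group WT levels ran from 0.46 at Atp5g3, a gene for the membrane ring subunit c, to -0.03 at Atp5f1, now Atp5pb, which encodes a subunit of the peripheral stalk. The 3 genes for the same ring protein, Atp5g1, Atp5g2 and Atp5g3, had 0.09, 0.62 and 0.20 in Eed-KO, 0.68, 1.35 and 1.03 in Dnmt1-KO and 0.23, 0.42 and 0.46 in WT.

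With all probes placed by distance from the annotated starts, the group's median probe level peaked in the 500 bp past the start, at 0.10 in Eed-KO, 0.80 in Dnmt1-KO and 0.24 in WT, from 194 probes of 78 genes. All promoters had 0.18 in Eed-KO, 0.88 in Dnmt1-KO and 0.26 in WT in the same bin. Between 500 and 1000 bp past the start the group had -0.10 in Eed-KO, 0.19 in Dnmt1-KO and 0.05 in WT, where all promoters had 0.14 in Eed-KO, 0.39 in Dnmt1-KO and 0.16 in WT. Genes for cytosolic ribosomal proteins, another set expressed in every cell, had 0.24 in Eed-KO, 0.29 in Dnmt1-KO and 0.56 in WT there. The WT level past the start was thus lower at oxidative phosphorylation genes than at ribosomal protein genes, a difference given without a test. Of the 80 windows 11 were centred more than 1 kb from the start, and 23 held probes that the annotation also assigns to another gene, among them Atp5d with Dos and Uqcrh with Lrrc41.

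**Figure D3:**
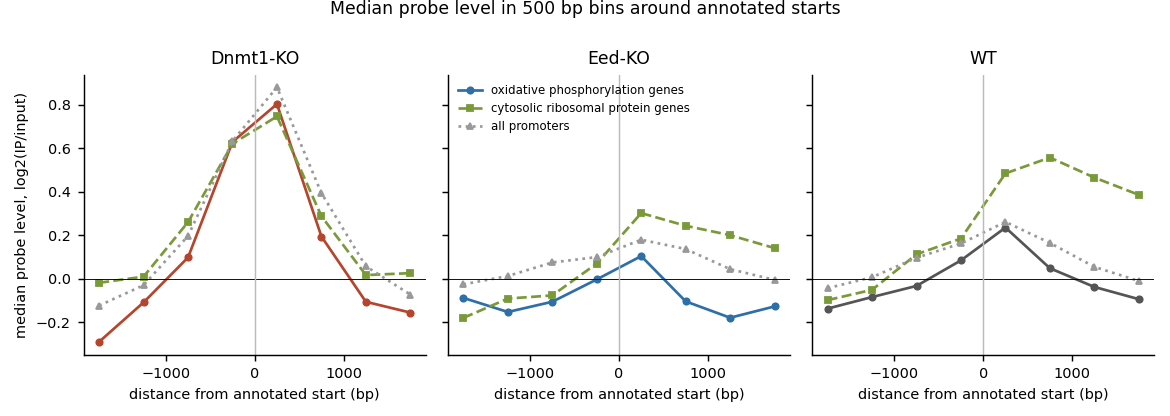
Median probe level (log2 of IP over input) in bins of 500 bp against distance from the annotated start, in Dnmt1-KO, Eed-KO and WT. Solid lines are oxidative phosphorylation genes, dashed lines cytosolic ribosomal protein genes and dotted lines all promoters; in WT the dashed line reaches 0.56 past the start while the solid line returns to 0.05.

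Eed-KO was set against WT to see whether Rybp levels at these promoters differ without Polycomb repressive complex 2. Levels were slightly lower in Eed-KO than in WT at most of them: 64 of 80 differences were below 0 (80%), against 59.3% of all promoters, and the median difference was -0.12 against -0.04. In 19 of the 80 all 6 probes were lower in Eed-KO (23.8%, against 8.05% of all promoters), and in 1, Cox6a2, all 6 were higher (3.79% of all promoters). No gene of the group was called higher or lower at 2-fold, and 0.00612% of all promoters were called higher and 0% lower. The differences are small beside the 2-fold rule and have no replicate behind them.

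The lowest Eed-KO minus WT value was at Cox7c, a small general subunit of complex IV, at -0.57 ± 0.11 (SE). Its level was -0.14 ± 0.37 in Eed-KO, 0.55 ± 0.51 in Dnmt1-KO and 0.43 ± 0.16 in WT, in a window at chr13:86519252-86520461. All 6 probes were lower in Eed-KO than in WT, and the difference stood at percentile 0.15 of all promoters. The only probes in the 1 Mb centred on the window were the 27 of Cox7c itself, the 6 of the window among them. No region around the gene was therefore measured. Over these 27 probes the median Eed-KO minus WT difference was 0.04 in input and -0.28 in IP. Whether the lower IP extends beyond the probes of Cox7c was not tested. With normexp background correction in place of the processed signals the Cox7c difference was -0.30, and Ndufb10 was lowest at -0.38. The promoter of Cox7c (RefSeq, GRCm38.p6, chr13:86046746-86047045, minus strand) is shown for this value, with a match to the YY1 motif in capitals.
Cox7c promoter: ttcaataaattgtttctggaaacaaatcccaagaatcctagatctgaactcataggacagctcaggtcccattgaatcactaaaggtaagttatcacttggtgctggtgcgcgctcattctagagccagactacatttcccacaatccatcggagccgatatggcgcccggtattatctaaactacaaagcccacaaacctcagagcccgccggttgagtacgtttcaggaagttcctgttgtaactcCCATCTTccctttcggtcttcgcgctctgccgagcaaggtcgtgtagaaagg

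Ndufa1, a complex I accessory subunit on the X chromosome, had -0.01 ± 0.60 in Eed-KO, 0.71 ± 1.17 in Dnmt1-KO and 0.49 ± 0.45 in WT, an Eed-KO minus WT difference of -0.49 ± 0.14. The other accessory subunit on the X chromosome, Ndufb11, had a difference of -0.36 ± 0.08. With normexp background correction the difference was -0.22 at Ndufa1 and -0.14 at Ndufb11. In the 1 Mb centred on each gene's window the median Eed-KO input was higher than that of WT, by 0.31 and 0.34 relative to the median probe. The IP was higher there by 0.30 and 0.31, so over these regions both channels differed by like amounts. In the windows themselves the channels differed unequally, with input higher by 0.58 and 0.43 and IP by 0.09 and 0.08. The Cox7b locus, also on the X chromosome, had 0.02 in input and -0.03 in IP. The largest such shift in the group was at Cox7a2l on chromosome 17, with 0.69 in input and 0.75 in IP, where the level difference was -0.12 ± 0.08.

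By role, the lower values in the main windows were most uniform in complex III, where 8 of 8 differences were below 0 with a median of -0.27. Uqcrh, the hinge protein gene, had -0.24 ± 0.16 in Eed-KO, 0.68 ± 0.64 in Dnmt1-KO and 0.15 ± 0.22 in WT, an Eed-KO minus WT difference of -0.40 ± 0.11. The differences at Uqcrc2, Uqcrfs1 (the Rieske protein) and Uqcrq were -0.36 ± 0.16, -0.32 ± 0.07 and -0.32 ± 0.12, and the smallest in complex III was at Uqcrc1, -0.05 ± 0.11. With windows chosen on the Eed-KO and WT arrays alone, Uqcrh and Uqcrb were above 0, at 0.12 and 0.01, so complex III was not uniform there. With normexp the Uqcrh difference was -0.25.

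In the general subunits of complex IV 11 of 12 differences were below 0, with a median of -0.12 and Cox6a1 as the exception at 0.09 ± 0.15. With windows chosen on Eed-KO and WT, Cox6a1 was below 0 too, at -0.10. Among accessory subunits of complex I 21 of 26 were below 0 (median -0.13), with Ndufs6 and Ndufa6 highest at 0.13 each. Among core subunits 5 of 7 were below 0 (median -0.12), with Ndufv1 lowest at -0.18 ± 0.07. In the Atp5 group 13 of 16 were below 0 (median -0.15), from -0.41 ± 0.10 at Atp5j, a coupling factor of the stalk (-0.19 with normexp), to 0.20 ± 0.25 at Atp5g2. Complex II was split, with Sdha at -0.25 ± 0.05 and Sdhd at -0.16 ± 0.06 but Sdhc at 0.03 ± 0.11 and Sdhb at 0.15 ± 0.07. Of the 5 tissue-restricted isoforms of complex IV only Cox6b2 and Cox4i2 were below 0, and Cox6a2 had the highest difference of the group, 0.29 ± 0.05.

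**Figure D4:**
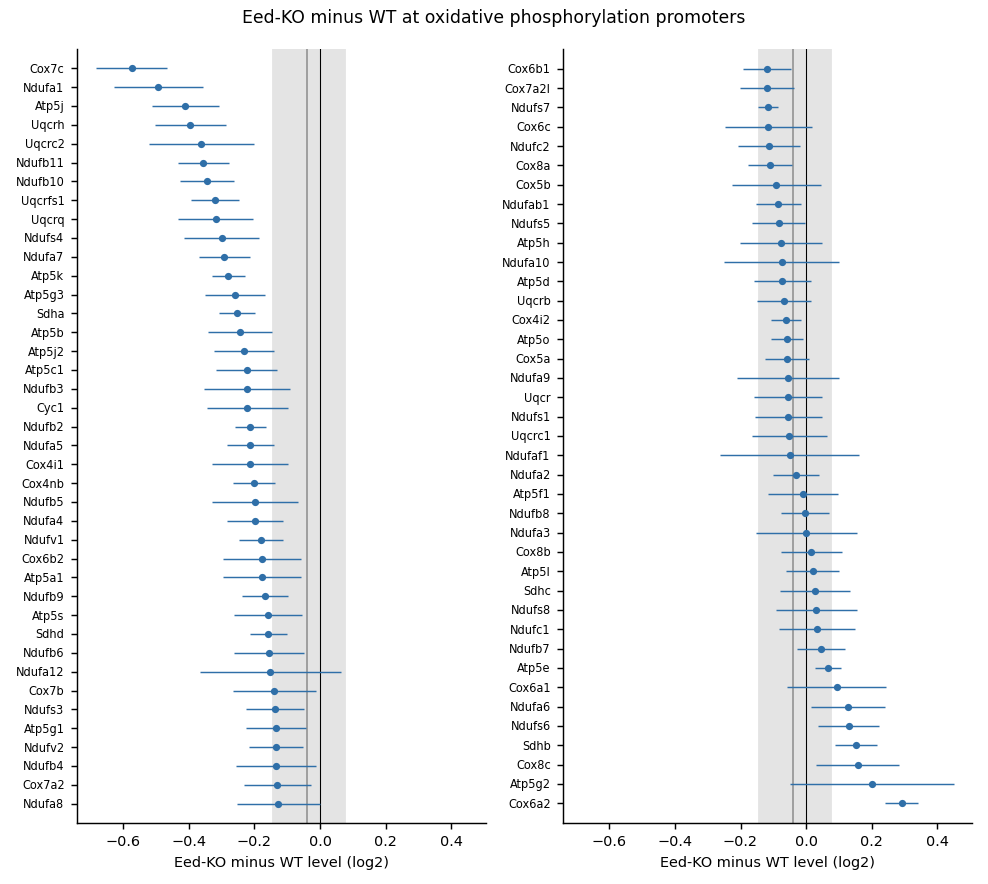
Eed-KO minus WT level (log2) of 79 genes with a window, lowest at the top left. Points are means over 6 probes, bars the SE over those probes, grey bands the quartiles and grey lines the median of all promoters (-0.04); most points of the left column lie left of the band, with Cox7c at -0.57 in its first line.

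The lower Eed-KO values were not confined to these genes. Of 72 mitochondrial ribosomal protein genes 59 were below 0 (81.9%, median -0.11), and of 79 cytosolic ribosomal protein genes 74 were (93.7%, median -0.19). Of 41 other genes of the respiratory chain and its cofactors, 24 were below 0 (58.5%, median -0.03). The group's median was -0.10 on the first array design and -0.13 on the second, where all promoters had -0.05 and -0.03. Split by channel, the median window of the group differed between Eed-KO and WT by 0.04 in input and -0.08 in IP, against 0.03 and 0.005 over all promoters.

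Dnmt1-KO was set against WT to see whether Rybp levels differ without maintenance methylation. In Dnmt1-KO 12 of the 80 genes were called higher (15%), against 24.9% of all promoters, and none lower, against 0.0184%. The median difference was 0.47 in the group and 0.61 over all promoters, and 70 of 80 differences were above 0 (83.9% of all promoters). All 6 probes were higher in Dnmt1-KO than in WT at 31 genes (43.4% of all promoters) and lower at 2, Ndufb10 and Ndufaf1 (2.05%). Setting the arrays to 1 spread took the median of all promoters to 0.07 and that of the group to 0.10, so the sign of the group's distance from all promoters turned. The calls in Dnmt1-KO are therefore given with the value under this scaling.

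Atp5d, the delta subunit of the ATP synthase stalk, had the highest difference. Its level was 0.25 ± 0.17 in Eed-KO, 2.34 ± 0.57 in Dnmt1-KO and 0.32 ± 0.26 in WT, in a window at chr10:79544520-79545821 with 7.26 CpG per 100 bases. The Dnmt1-KO minus WT difference was 2.02 ± 0.29, with 6 of 6 probes above 0, and 1.00 with arrays at 1 spread. Probe levels in Dnmt1-KO were between 1.75 and 3.21 across the window, all above the highest WT probe at 0.62. A promoter of Atp5d (RefSeq, GRCm38.p6, chr10:80142025-80142324, plus strand) is shown as that of the largest difference, with CpG dinucleotides in capitals.
Atp5d promoter: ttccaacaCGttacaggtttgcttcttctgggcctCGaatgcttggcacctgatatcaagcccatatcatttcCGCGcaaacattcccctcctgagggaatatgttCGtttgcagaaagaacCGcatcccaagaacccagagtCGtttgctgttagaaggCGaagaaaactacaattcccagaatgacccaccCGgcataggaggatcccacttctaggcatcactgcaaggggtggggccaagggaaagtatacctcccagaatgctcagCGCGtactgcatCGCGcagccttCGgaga

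Ndufs8, an iron-sulfur subunit of complex I, had -0.11 ± 0.21 in Eed-KO, 1.54 ± 0.85 in Dnmt1-KO and -0.14 ± 0.18 in WT, a Dnmt1-KO minus WT difference of 1.69 ± 0.30, and 1.03 at 1 spread. Its window was centred 1180 bp past the start, and over the 6 probes nearest the start the difference was 0.76. In WT this window had one of the lower levels of the group, at percentile 6.63 of all promoters. The Cox8c difference was 1.60 ± 0.45, and 0.42 at 1 spread. Genes called higher also included Uqcrc1 (1.38 ± 0.28), a core protein of complex III, Atp5c1 (1.34 ± 0.37), the gamma subunit of the rotor, Ndufa10 (1.30 ± 0.16), Ndufa12 (1.22 ± 0.41), Ndufab1 (1.17 ± 0.10), the mitochondrial acyl carrier protein, Cox4nb (1.15 ± 0.30), Ndufb6 (1.08 ± 0.16) and Cox8b (1.08 ± 0.20). At 1 spread all 12 differences were above 0 and above the median of all promoters, between 0.41 and 1.03, and Atp5d alone was called, the Ndufs8 level being 0.89 in Dnmt1-KO on that scale. Of all promoters 0.539% were called higher on that scale. With the GC trend removed as well, the Atp5d difference was 0.91 and none was called. The windows were chosen with Dnmt1-KO included. With windows chosen on Eed-KO and WT the difference was 0.13 at Ndufab1, 0.75 at Ndufa12, 0.87 at Ndufs8 and 0.91 at Ndufb6, so these were not called. With normexp it was 0.96 at Ndufa10, 0.89 at Ndufab1, 0.85 at Ndufb6 and 0.83 at Ndufa12, also short of the rule. With the GC trend alone removed, 0.85 at Ndufa10, 0.76 at Ndufab1, 0.74 at Cox4nb, 0.69 at Ndufb6 and 0.67 at Ndufa12 were short of it too. Just outside the rule, Cox6a1 had a Dnmt1-KO minus WT difference of 1.02 ± 0.35 but a Dnmt1-KO level of 0.89, and Cox8b and Ndufb6 lay just inside it. Over the 6 probes nearest the start the 12 ran from 0.05 at Cox8b to 1.60 at Cox8c.

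**Figure D5:**
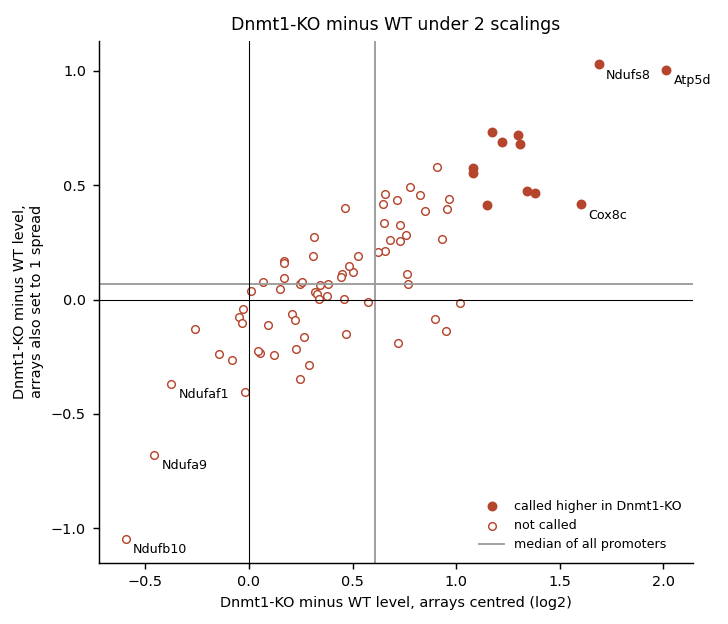
Dnmt1-KO minus WT level (log2) of the 80 genes with arrays centred (horizontal axis) and with arrays also set to 1 spread (vertical axis). Filled points are the 12 genes called higher, grey lines the medians of all promoters, 0.61 and 0.07; Atp5d and Ndufs8 lie at the top right under both scalings and Ndufb10 at the bottom left.

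At the other end, Ndufb10 had the lowest Dnmt1-KO minus WT difference, -0.60 ± 0.13 with 0 of 6 probes above 0, in its 3′ window, and -1.05 at 1 spread, where it was called lower (0.509% of all promoters). Ndufa9, an accessory subunit with a nucleotide-binding fold, followed at -0.46 ± 0.37, and the assembly factor Ndufaf1 at -0.38 ± 0.10 with 0 of 6 probes above 0. Ndufaf1 had 0.14 ± 0.34 in Eed-KO, -0.18 ± 0.55 in Dnmt1-KO and 0.19 ± 0.30 in WT. This order depended on the windows. Over the 6 probes nearest the start, Ndufa9 was lowest at -0.87 ± 0.18 with 0 of 6 above 0, and Ndufb10 was at 1.22. With windows chosen on Eed-KO and WT, Cox4i1 was lowest at -1.44, and 26 of 80 differences were below 0 (31.7% of all promoters). None was called lower with those windows (0.0307% of all promoters).

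By role, the counts of bound genes in Dnmt1-KO stand beside the 46.1% of all promoters bound there. Of the core subunits of complex I 5 of 7 were bound, among them Ndufs8 (1.54), Ndufs7 (1.32) and Ndufv1 (1.22), whereas Ndufs3 was at -0.03. Of the accessory subunits 5 of 26 were bound, namely Ndufa10, Ndufa12, Ndufb6, Ndufab1 and Ndufc2, at levels from 1.35 down to 1.04. In complex III 3 of 8 were bound (Uqcrc1, Uqcrfs1 and Cyc1), in the general subunits of complex IV 2 of 12 (Cox5b and Cox5a), in the tissue-restricted isoforms 2 of 5 (Cox8c and Cox8b) and in the Atp5 group 5 of 16 (Atp5d, Atp5c1, Atp5g2, Atp5j and Atp5g3). None of the 4 complex II genes was, their Dnmt1-KO levels being between 0.36 (Sdhc) and 0.71 (Sdha). At 1 spread Atp5c1, Atp5d, Cox5b and Cox8c stayed above the bound level, as did 16.5% of all promoters. Mitochondrial ribosomal protein genes were bound in 22 of 72 cases (30.6%) and cytosolic ones in 25 of 79 (31.6%), beside 28.8% of the oxidative phosphorylation genes and 46.1% of all promoters.

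The windows of the group were CpG-rich, with 3.28 CpG per 100 bases at the median, where all promoters had 2.58. Across the 80 genes the correlation of CpG content with the level was 0.08 in Eed-KO, 0.39 in Dnmt1-KO and 0.16 in WT (Pearson's r, a description over genes measured on shared arrays), and Spearman's rho was 0.18 in Eed-KO, 0.37 in Dnmt1-KO and 0.30 in WT. Over all promoters Pearson's r was 0.32 in Eed-KO, 0.56 in Dnmt1-KO and 0.45 in WT, and rho was 0.44 in Eed-KO, 0.63 in Dnmt1-KO and 0.57 in WT. The 23 genes bound in Dnmt1-KO had a median of 4.27 CpG per 100 bases, and the other 57 had 3.24. By channel, the median window of the group had centred Dnmt1-KO minus WT differences of 1.06 in input and 1.40 in IP. All promoters had 1.20 and 1.86. These values are relative to the median probe of the array and do not say which genotype had the higher raw signal.

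The RefSeq promoter table (GRCm38.p6, from 250 bases before to 50 after a start) held 70 promoters of 65 of the 81 genes. Motifs were searched as TGCGCA for NRF1, CCGGAAG for ETS factors, AAGATGG for YY1, CACGTG for E-box factors and TTCCCGC for E2F, on both strands, none of which contains another. NRF1 letters were in 19 of the 70 promoters (27.1%), against 11.0% of 16159 promoters of genes on the arrays and 7.76% of all 32851 in the table. ETS letters were in 24.3% against 12.9%, and YY1 letters in 15.7% against 6.41%, of group promoters and promoters of genes on the arrays. E-box and E2F letters were each in 7 of the 70 promoters (10.0%), against 8.54% and 6.48%. The median promoter held 19 CpG in the group, 16 among genes on the arrays and 7 in the whole table. The letters searched for NRF1, ETS, E-box and E2F each hold a CpG, and the part of CpG content in these shares was not tested. Median WT levels were 0.18 with and 0.19 without NRF1 letters, 0.07 with and 0.23 without ETS letters, and 0.12 with and 0.20 without YY1 letters. The promoter of Ndufs8 (chr19:3912725-3913024, minus strand), with its ETS match in capitals, and that of Cox5b (chr1:36691237-36691536, plus strand), with NRF1 and E2F matches in capitals, show such promoters.
Ndufs8 promoter: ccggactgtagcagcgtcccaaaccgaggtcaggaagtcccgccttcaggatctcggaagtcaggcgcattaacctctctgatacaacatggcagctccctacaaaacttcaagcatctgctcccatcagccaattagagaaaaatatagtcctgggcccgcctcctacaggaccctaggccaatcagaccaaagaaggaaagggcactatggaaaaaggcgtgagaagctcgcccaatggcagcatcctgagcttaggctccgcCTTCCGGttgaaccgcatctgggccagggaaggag
Cox5b promoter: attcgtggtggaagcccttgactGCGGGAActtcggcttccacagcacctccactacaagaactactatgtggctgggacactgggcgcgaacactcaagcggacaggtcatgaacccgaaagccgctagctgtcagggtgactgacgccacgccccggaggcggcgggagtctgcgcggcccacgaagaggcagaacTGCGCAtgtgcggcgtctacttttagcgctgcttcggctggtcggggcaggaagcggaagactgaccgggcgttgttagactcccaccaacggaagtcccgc

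Of 41 genes that serve the same pathway without matching the symbol rule, 1 was bound in WT, against 5.15% of all promoters. It was Slc25a31, the testis isoform of the ADP/ATP carrier. Slc25a31 was also among 8 germ-cell genes listed for scale as known targets of variant Polycomb repressive complex 1. Of these 8, 7 were bound in Eed-KO, 8 in Dnmt1-KO and 6 in WT. Slc25a31 had 2.29 in Eed-KO, 4.03 in Dnmt1-KO and 2.11 ± 0.49 in WT, the highest WT level of the 41. Next in WT came the coactivator gene Ppargc1b, with 0.74 in Eed-KO, 2.51 in Dnmt1-KO and 0.97 in WT, and Tfb1m, a factor of mitochondrial ribosomal RNA modification, with 0.43 in Eed-KO, 1.15 in Dnmt1-KO and 0.82 in WT. Cyct, the testis form of cytochrome c, had 0.73 in Eed-KO, 1.67 in Dnmt1-KO and 0.47 in WT, and its somatic form Cycs had 0.21 in Eed-KO, 1.55 in Dnmt1-KO and 0.46 in WT. The testis forms described here thus ranged in WT from bound (Slc25a31) to just below the median of all promoters (Cox6b2), with Cox8c and Cyct between them.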

How the data were processed

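Rybp ChIP DNA (red, Cy5) and input DNA (green, Cy3) were hybridised to 2-colour promoter arrays, 2 array designs for each of 3 genotypes, 6 arrays in all. The scanner files hold intensity values that the authors deposited, background-subtracted and dye-normalized as processed signals by Agilent Feature Extraction 9.5.3.1, per the submitters' processing notes, or 10.1.1.1 for Dnmt1-KO, per the file headers. The authors' deposited value table holds log10 ratios of the same arrays, with array medians between -0.121 and -0.025. Over 99.0% of its values lay within 0.001 of a constant shift from the scanner ratios, which settles scale and direction, and it served as an alternative. No source used here gives the genome build of the probe coordinates.

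From these, log2 ratios of red over green processed signal were centred on each array's median, without loess or quantile normalization. Control spots and outlier spots (333 probes) were left out. Probes are 45 to 60 bases long, and windows of 6 probes had a median length of 1027 bp. Tools were Python 3.11.15 with pandas 2.3.3 and statsmodels 0.14.6, and R 4.3.3 with limma 3.58.1 for normexp (offset 50). Signal over background limits precision. Input was well above background at 88.1% and 85.8% of Dnmt1-KO probes and at over 99.9% of Eed-KO and WT probes. The extraction rule was stricter for Dnmt1-KO, with a multiplier of 13 against 2.6, so these shares cannot be compared between genotypes. The window search and calls were tested on simulated data, with noise from WT probes at reduced spread and a planted shift above the 2-fold rule. That test does not cover differences near the rule or the wider spread of Dnmt1-KO. Samples were grouped by their genotype labels, and no sample was left out. The values of 1 gene are counted in the totals but not reported here.

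The members and lists were chosen with earlier results of these data known. Genes were named by these rules: those bound in WT or Eed-KO or within 0.1 of that level, those past the 2-fold rule, the highest and lowest of each role, all tissue-restricted isoforms, and the 3 highest other chain genes in WT. Names outside these rules were chosen after their values were seen. Current symbols were found for 81 of 81 genes and promoter sequences for 65 in RefSeq tables of GRCm38.p6. No replicate test could be made, and 10 other settings, and 2 more chosen after seeing the data, were run.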

Additional observations from a re-analysis of the deposited data

How the results depend on the processing

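The counts of oxidative phosphorylation genes called higher or lower in Eed-KO were 0 under every alternative run, the median Eed-KO minus WT difference ran from -0.17 to -0.07 and the median WT level from 0.13 to 0.27. The Dnmt1-KO values depended on the scaling. Shares of all promoters stand in parentheses. With arrays scaled to 1 spread, 2 genes were bound in Eed-KO (10.6%), 4 in Dnmt1-KO (16.5%) and 3 in WT (13.5%), 1 was higher (0.539%) and 1 lower (0.509%) in Dnmt1-KO, and the median Dnmt1-KO minus WT difference was 0.10. With the trend on probe GC content removed, 10 were bound in Dnmt1-KO (30.4%), 7 were higher (12.9%) and the median difference was 0.31. With both steps, 2 were bound in Eed-KO (8.85%), 3 in Dnmt1-KO (9.11%) and 3 in WT (11.1%), 0 were higher (0.301%) and 1 lower (0.621%) in Dnmt1-KO, and the median Dnmt1-KO minus WT difference was 0.0802. With windows chosen on Eed-KO and WT, 14 were bound in Dnmt1-KO (35.2%), 7 higher (13.8%) and the median difference was 0.21. With runs of 4 probes, 3 were bound in Eed-KO (7.84%), 35 in Dnmt1-KO (54%) and 3 in WT (7.37%), 20 were higher (32.6%) and the median difference was 0.68. At 1.5-fold, 4 were bound in Eed-KO (18.7%), 48 in Dnmt1-KO (65.5%) and 4 in WT (20.6%), 34 were higher (50.6%) and 1 lower (0.141%) in Dnmt1-KO. Counting Ndufa13 on its 5 probes, an alternative chosen after seeing the data, gave 1 bound gene in Eed-KO (5.76%) and 1 in WT (5.16%). For the scaling and GC settings the cause was not tested. No paired analysis was possible because the array numbers name designs with different probes, and no replicate could be left out because each promoter has 1 array per genotype. The wider spread limits the Dnmt1-KO values. Whether their input was dimmer cannot be read from the shares well above background, which followed a stricter rule in Dnmt1-KO.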
